A study of Sus scrofa with 9 samples.

Results

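Pig miRNAs with a number of 2000 or more were followed in the spleen of the Ningxiang pig, a native breed of China, with 3 small RNA libraries from each of postnatal days 30, 90 and 210. Members were all entries of the deposited table whose name carries such a number and whose value was above 0 in at least 1 of the 9 libraries. There were 64 such entries of 980 in all, with 63 distinct sequences and 38 distinct numbers, running from miR-2320 to miR-10391. All groups are spleen of 1 breed, the labels name no treatment, and age is the only factor they give. Whether the 3 libraries of an age stem from different animals is not stated, so a p-value here reflects the spread among libraries, which may be technical.

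MicroRNAs are short RNAs cut from hairpin precursors, in which either the 5′ or the 3′ arm, or both, can be kept. The mature strand is loaded into an Argonaute protein and pairs with target transcripts mainly through its seed, bases 2 to 8 from the 5′ end, which lowers their stability and translation. Numbers are given by the miRNA database in order of registration, so a high number marks a miRNA described late, and many of these were reported in only a few species and have no established role. No role is therefore given for most of them. In the spleen, a blood filter and lymphoid organ, miRNAs come from lymphocytes, myeloid and red cells, vessels and stroma, and in whole tissue fewer cells of a type and less RNA per cell cannot be told apart.

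Names are written without the species prefix. A suffix follows the naming of the authors' program: L and R give bases gained (+) or lost (-) at the left (5′) and right (3′) end relative to the database entry, and p5 or p3 marks an arm that the program placed on the precursor without a database entry. Of the 64 entries, 46 carried a database name and 18 a p5 or p3 name, 26 had a suffix, and 9 of these had a shifted 5′ end and so another seed. Values are the authors' normalised read numbers. Each read spans a whole miRNA, so levels of different miRNAs are compared without a length correction.

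The sequences below are those on which the results turn, taken from the deposited table and written as DNA letters 5′ to 3′, with the seed in capitals. The first set shows the 2 precursors that were higher at day 210, both arms of each, with a GC content of 68.2% to 85%. miR-2320-5p_R+1 of the next set, which was lower at day 210, lies within that range at 69.6%.
miR-10386_L+1: cGTCGTCCtctccctccctcct
mir-10386-p3: cTCCGGAGggggaggggg
mir-4332-p5: tGTCGCGGgggtgggcgggc
mir-4332-p3: cCGGTCGGcgtccacggc

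The next set shows the sequences that passed the test given below as lower at day 210 against 1 or both earlier ages. It also shows miR-10390_L-3, a further form of miR-10390 that did not pass. The 3 forms of miR-10390 share their 3′ end and start at different bases, so that each has its own seed.
miR-10390: aTACTACTgacagaccgcaacct
miR-10390_L-3: cTACTGACagaccgcaacct
miR-10390_L-5: aCTGACAGaccgcaacct
miR-4331-5p: tGGCGTAGatcacagacacagc
miR-7136-5p: tCTGGTCCagacactgtggagc
miR-9841-3p: tCTAGCATcgagcacccgcct
miR-2320-5p_R+1: tGGCACAGggtccagctgtcggc

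The last set shows the most abundant members beside 2 entries of the table that are not members. One is miR-339_R+1, which has the seed of miR-4334-3p, and the other is PC-3p-185_76789, a candidate of the authors, which has that of miR-7134-3p.
miR-4334-3p: tCCCTGTCctccaggagctc
miR-339_R+1: tCCCTGTCctccaggagctcac
miR-7134-5p: aTGTCCGCgggttccctatcc
miR-7134-3p: aTGCGGAAcctgcggatacgg
PC-3p-185_76789: aTGCGGAAcctgcggatacgga

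Most high-numbered miRNAs were scarce. Of the 63 sequences, the 6 most abundant had means of 1494 to 67558 over the 9 libraries and 23 had a mean above 100, while 17 had a mean under 10. Among the 6, miR-10386_L+1 owed its mean of 4572 to day 210, since its means at days 30 and 90 were 95.9 and 74.5. The median of the means was 35.9, against 318 for the 390 other pig miRNAs and 2.02 for the 522 candidates. Of the 64 entries 37 were above 0 in all 9 libraries, 23 in 2 to 8 libraries and 4 in 1 library. Together the members held between 1.65% and 2.16% of all values of a library, and between 0.723% and 1.27% without miR-4334-3p.

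Mature sequences of the members were richer in G and C than those of other pig miRNAs. Their median GC content was 57.1% (quartiles 47.7% and 64.3%), against 47.6% (quartiles 40.9% and 54.5%) for the other pig miRNAs and 59.1% for the candidates. A GC content of at least 70% was found in 7 of 63 members (11.1%), in 10 of the 390 other pig miRNAs (2.56%) and in 117 of the candidates (22.4%). The lengths ran from 18 to 25 bases with a median of 22, and 5 members were 18 bases long (7.94%, against 1.28% of the other pig miRNAs). These are descriptions of the table and were not tested.

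Both arms were listed for 21 precursors, and the arms differed widely in level. Over 9 libraries miR-9841-3p had 1566 times the mean of mir-9841-p5, and miR-7142-3p 795 times that of its 5p arm. The arms of miR-2483 were closest, at a ratio of 1.33, and in 6 of 9 libraries the p5 arm was the higher one. The longest run of perfect pairing between both arms had a median of 6 bases. It reached 19 bases in miR-7137 and 17 in miR-9841, and was 7 bases in miR-10386 and 4 in miR-4332. Pairing runs describe these letters alone, since the precursors were not used here.

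Members rarely shared a seed with each other: the 63 sequences had 62 distinct seeds, and the shared one, CCCTGTC, belongs to miR-4334-3p and its form miR-4334-3p_R+5. It is also the seed of miR-339, a miRNA conserved across mammals. The 20 bases of miR-4334-3p lie whole within miR-339_R+1, and a second entry of the table, named miR-339_R-1, has the same sequence and the same value in every library. The mature sequence of miR-4334-3p thus goes against the description of these miRNAs as mostly lineage-restricted; for the others that description was not tested.

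Libraries were compared before the members. The estimated depth, taken from the steps between low values under the assumption that the commonest low value stands for 5 reads, was lowest in day 210 replicate 3. It was 7080000, 6160000 and 4540000 reads in day 210 replicates 1, 2 and 3, and 6640000 to 9340000 reads at the earlier ages, rounded. Of 12 miRNAs that mark lymphoid, blood, red and vessel wall cells, 11 were matched. The blood cell miR-142-3p and miR-223 summed to 5315 to 10188 at day 30, 8429 to 10177 at day 90 and 5164 to 6737 at day 210. For these, day 210 lay below day 90. The erythroid miR-451, miR-486 and miR-144 overlapped between ages, at 15364 to 23622, 15317 to 23036 and 8147 to 24466. The lymphoid miR-150, miR-155-5p and miR-181a summed to 129887 to 155091 at day 30, 175611 to 213640 at day 90 and 185187 to 201844 at day 210, so day 30 lay below both later ages. Those of vessel wall and stroma, miR-126-3p, miR-143-3p and miR-145-5p, summed to at most 1148220 at the earlier ages and to 1297390 to 1557900 at day 210. Of 12 miRNAs of other organs 7 were matched. Those of striated muscle, miR-1, miR-133a-3p and miR-206, summed to 7627 to 10535 at day 30, 5406 to 8405 at day 90 and 10994 to 14505 at day 210, and the epithelial miR-141 and miR-205 to 23.8 to 117, 54.9 to 97.8 and 128 to 321, so both were higher in every day 210 library than at the earlier ages. The neural miR-9 stood at 399 to 527 at day 30, 683 to 731 at day 90 and 546 to 873 at day 210. The part of these marker shifts in the differences below was not tested. No entry was matched for liver miR-122, pancreatic miR-216 and miR-375, epithelial miR-200c or neural miR-124a. Pancreatic miR-217 was matched and stood between 0 and 12.4 over all libraries.

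**Figure D1:**
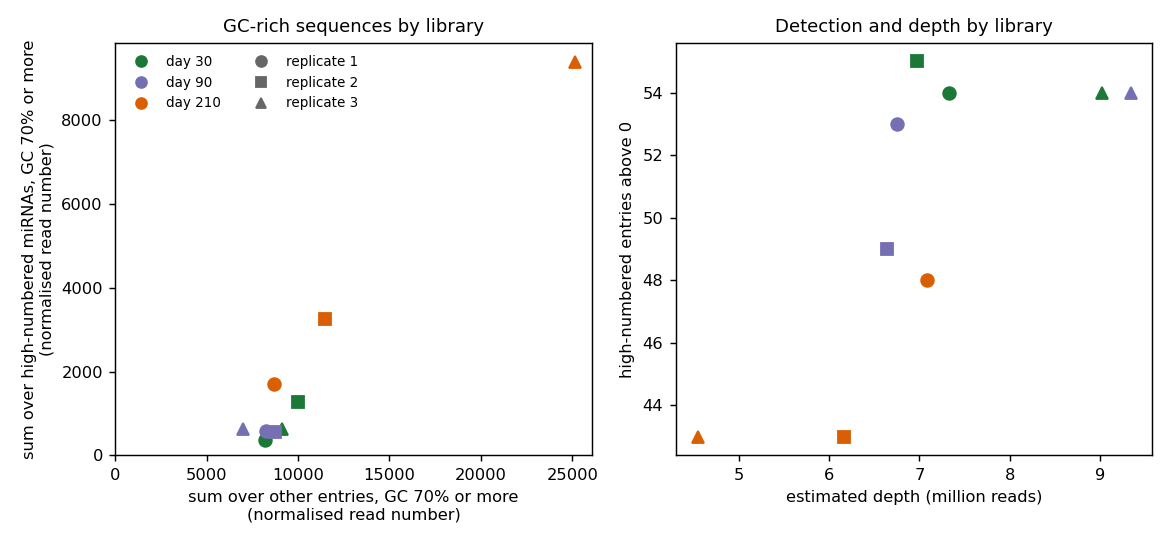
Left, summed normalised read numbers of the 7 high-numbered miRNAs with a GC content of at least 70% (vertical axis) against the sum over the 127 other entries with such a GC content (horizontal axis), 1 point per library; day 210 replicate 3 stands apart at 9407 and 25168. Right, number of high-numbered entries above 0 against the estimated depth, with 43 to 48 entries at day 210 and 49 to 55 at the earlier ages.

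Fewer high-numbered miRNAs were detected in the oldest spleens. The number above 0 was 54, 55 and 54 at day 30, 53, 49 and 54 at day 90, and 48, 43 and 43 at day 210. The day 210 libraries lay below all others. Over the whole table the number above 0 moved the same way, from 660 ± 26.1 at day 30 to 579 ± 36.2 at day 210 (mean ± SD, n = 3), and the depth was lower in day 210 replicates 2 and 3. The part of depth in this was not tested.

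Changes with age were tested with limma on log2(value + 1) over all sequences that reached a value of 5 in 3 or more libraries. Of 630 tested sequences 52 were members; the other 11 members had no value above 10.3. A call is a Benjamini-Hochberg adjusted p under 0.05 over the 630. The comparisons of day 210 with day 30 and with day 90 share the day 210 libraries and are not independent of each other.

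Between day 30 and day 90 none of the 52 tested high-numbered miRNAs was called by limma, while 13 passed 0.05 before adjustment. Over all 630 sequences 7 were called (1.11%), 0.794% higher and 0.317% lower, and 96 passed 0.05 before adjustment. The median log2 difference was -0.16 for the members and -0.04 for all. In 8 members every day 90 library lay above every day 30 library, and in 11 every one lay below, that is 15.4% and 21.2% of the members against 14.1% and 13.8% of all tested sequences.

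The largest positive log2 differences belonged to miR-7140-3p and to both arms of miR-7857, which are named after their values were seen. miR-7140-3p_L+1R-1 was 5.09, 0 and 0 at day 30, then 34.5, 25.4 and 83.6 at day 90, and 18.1, 0 and 0 at day 210. It was above 0 in all libraries of day 90 and in 1 library of each other age. These values all reached 5, so it entered the test through day 90, where it is highest. miR-7857-3p was 198, 215 and 147 at day 30, 451, 407 and 503 at day 90 and 784, 172 and 443 at day 210. Its other arm, mir-7857-p5, was 15.3, 15.3 and 21.0, then 62.3, 50.8 and 51.7, then 45.9, 9.04 and 44.8. Both arms were higher in all day 90 than in all day 30 libraries, and both were low in day 210 replicate 2. Their differences of 1.29 ± 0.46 and 1.63 ± 0.58 on the log2 scale (SE) had a limma adjusted p of 0.220 each, and passed in a fit of only the libraries of days 30 and 90 (0.0276 and 0.0301), with sample weights (0.0275 and 0.0403) and without day 210 replicate 2 (0.0450 and 0.0447). miR-7140-3p had an adjusted p of 0.156, and of 0.0425 in the fit of both ages alone, 0.0149 with sample weights and 0.0471 without day 210 replicate 1. The largest negative differences were those of mir-10384-2-p3 (-3.16 ± 0.99) and miR-10382_R+1 (-2.88 ± 1.07). Their limma adjusted p was 0.174 and 0.240, and with sample weights 0.0268 and 0.0338. The first also passed in the fit of both ages alone (0.0329). Each reached a value of 5 in 3 libraries of day 30 and 0 of day 90.

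Between day 30 and day 210, 4 high-numbered miRNAs rose and 5 fell. The risers were both arms of miR-10386 and both arms of miR-4332. The called lower were miR-10390 and its form miR-10390_L-5, miR-4331-5p, miR-9841-3p and miR-2320-5p. Together 17.3% of the 52 members were called, 7.69% higher and 9.62% lower, where 9.21% of all 630 sequences were called, 4.6% higher and 4.6% lower. The member shares include mir-10386-p3, which entered the test through day 210, and miR-10390_L-5, which entered through day 30. Each is highest at the age through which it entered. By unadjusted p under 0.05 there were 24 members (46.2%) and 185 of all (29.4%). The median log2 difference was -0.33 for the members and -0.15 for all, and 31 of 52 members had lower values. In 6 members all day 210 libraries lay above all day 30 libraries (11.5%, against 12.1% of all), and in 17 they lay below (32.7%, against 18.1% of all). With every library rescaled to an equal sum the median of all 630 moved from -0.15 to -0.38, and 10 members were called lower and 4 higher. Of all 630 sequences 92 were called after this rescaling, against 58 without it.

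Single libraries changed these counts. Without day 30 replicate 1 none of the members was called in either direction, without day 30 replicate 2 there were 4 higher and 2 lower, and without day 30 replicate 3 there were 0 higher and 2 lower. Leaving out day 90 replicates 1, 2 or 3, which enter only through the shared spread, left 1, 3 and 2 higher and 3, 4 and 4 lower. Without day 210 replicates 1, 2 or 3 there were 3, 1 and 5 higher and 8, 3 and 7 lower. The calls over all tested sequences, members included, moved as well. They were 58 with all libraries, and 9, 45 and 20 without day 30 replicates 1, 2 and 3. Without day 90 replicates 1, 2 and 3 they were 37, 43 and 49. Without day 210 replicates 1, 2 and 3 they were 78, 28 and 95. The shifts were thus not confined to the members.

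**Figure D2:**
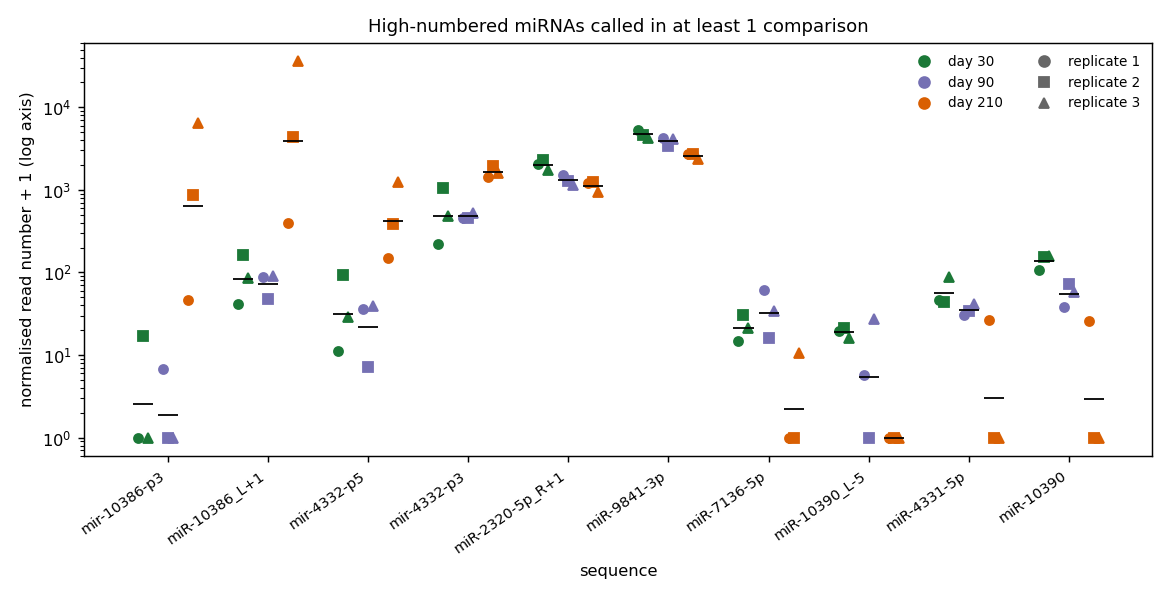
Normalised read number + 1 on a log axis for the 10 high-numbered miRNAs called in at least 1 comparison, ordered by their difference between day 210 and day 30; each point is a library, colours are ages, shapes are replicates, and the bars are geometric means of 3 libraries. The day 210 values of miR-10386_L+1 spread from 391 to 35846, while those of miR-9841-3p lie between 2384 and 2719.

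The largest difference was in miR-10386. miR-10386_L+1 stood at 40.7, 163 and 84.0 at day 30, at 86.3, 46.8 and 90.5 at day 90, and at 391, 4396 and 35846 at day 210. All 3 day 210 libraries lay above the 6 others, and they differed among themselves far more than the others did, with replicate 3 the highest. The difference from day 30 was 5.57 ± 1.29 on the log2 scale, a 47.4-fold ratio of geometric means (limma adjusted p 0.0266), and that from day 90 was 5.77 ± 1.29 (adjusted p 0.0248). Without day 210 replicate 3 the difference from day 30 was 3.98 and stayed called (adjusted p 0.0212).

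The other arm moved with it. mir-10386-p3 was listed at 0, 16.2 and 0 at day 30, at 5.75, 0 and 0 at day 90, and stood at 45.9, 874 and 6516 at day 210. Before day 210 it was above 0 in 2 of 6 libraries, with 17 and 6 reads by the estimated steps, and at day 210 it was highest in the same library as its partner. It reached a value of 5 in 1, 1 and 3 libraries of days 30, 90 and 210. It thus entered the test through day 210, where it is highest. Its log2 differences were 7.96 ± 1.74 from day 30 (limma adjusted p 0.0229) and 8.41 ± 1.74 from day 90 (0.0205). These depend on how zeros are treated: with all values below 8.001, the highest detection level of the libraries, raised to it, they were 5.85 and 6.16 and missed the threshold (adjusted p 0.0662 and 0.0629).

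The arms listed for miR-4332 both rose as well. Each carries a p3 or p5 name, and no entry with a database name of miR-4332 was among the members. mir-4332-p3 stood at 221, 1041 and 486 at day 30, at 451, 460.5 and 527 at day 90, and at 1428, 1937 and 1579 at day 210. The day 210 libraries were alike and above all others, though day 30 replicate 2 came close. mir-4332-p5 stood at 10.2, 92.5 and 28.2, then 35.5, 6.10 and 38.0, then 149, 387 and 1246.5. This arm was again highest in day 210 replicate 3. The p3 arm was 3.39-fold higher at day 210 than at day 30 (log2 1.76 ± 0.44, limma adjusted p 0.0377), and the p5 arm 13.4-fold (log2 3.74 ± 0.98, adjusted p 0.0438). From day 90 the differences were 1.77 ± 0.44 (adjusted p 0.0385) and 4.27 ± 0.98 (adjusted p 0.0275). The ratio of the p3 to the p5 arm lay between 11.2 and 75.5 at the earlier ages and was 9.56, 5.00 and 1.27 at day 210.

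The calls of these 4 sequences depended on the fit, while their direction did not turn in any of the 19 alternatives. All 4 calls against day 30 were lost with the common detection level, without the mean-variance trend and in a fit limited to both ages, and that of mir-4332-p5 also with the GC correction (limma adjusted p 0.0617). Against day 30, miR-10386_L+1 lost its call without day 30 replicates 1 or 3, day 90 replicate 1 or day 210 replicate 2, with an adjusted p of at most 0.107. mir-10386-p3 lost it without day 30 replicates 1 or 3 or day 210 replicate 2 (at most 0.104). mir-4332-p3 lost it without day 30 replicates 1 or 3, any 1 of the day 90 libraries, or day 210 replicates 1 or 2 (at most 0.131), and mir-4332-p5 without day 30 replicates 1 or 3, day 90 replicates 1 or 3, or day 210 replicates 2 or 3 (at most 0.147). Left-out libraries moved the log2 difference from day 30 over 3.98 to 7.23 for miR-10386_L+1, 6.29 to 9.85 for mir-10386-p3, 1.20 to 2.31 for mir-4332-p3 and 2.95 to 4.53 for mir-4332-p5; the lowest of these came without day 210 replicate 3 for all but mir-4332-p3, whose lowest came without day 30 replicate 1.

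Against day 90 the 4 calls were lost with the common detection level and without the trend, those of mir-10386-p3, miR-10386_L+1 and mir-4332-p5 in a fit limited to both ages, and those of both arms of miR-4332 with the GC correction. Leaving out any 1 of the day 90 libraries or day 210 replicate 2 ended each of them. Leaving out day 30 replicate 3 ended those of miR-10386_L+1 and both arms of miR-4332, and leaving out day 210 replicate 1 that of mir-4332-p3. The limma adjusted p in these fits without a library was at most 0.0999 for miR-10386_L+1, 0.0856 for mir-10386-p3, 0.122 for mir-4332-p3 and 0.103 for mir-4332-p5.

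Among other GC-rich entries, day 210 replicate 3 stood apart. The 127 other entries with a GC content of at least 70% summed to 8165, 10013 and 9112 at day 30, to 8264, 8744 and 6971 at day 90, and to 8663, 11454 and 25168 at day 210. The sum of the 7 members with such a GC content was 366, 1262 and 621 at day 30, 590 (589.5), 558 and 617 at day 90, and 1701, 3265 and 9407 at day 210. Day 210 replicate 3 was highest in both, while day 210 replicate 1 was within the earlier range for the other entries and above it for the members. Of 49 tested GC-rich sequences that are not members, 5 were called higher and 3 lower between days 30 and 210. Their median log2 difference was -0.03, and 12 had all day 210 libraries above all of day 30. Of all 630 sequences 4.6% were called higher, 4.6% were called lower and 12.1% lay wholly above. Against day 90 the counts for these 49 were 5 higher and 3 lower, with a median of 0.56 and 15 that lay wholly above. Of all 630 sequences 4.13% were called higher, 3.97% were called lower and 13.3% lay wholly above. The part of GC content and of that library in the rises was not tested.

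Over the 52 tested members the Spearman correlation of GC content with the log2 difference was -0.01 between days 210 and 30, -0.31 between days 90 and 30 and 0.29 between days 210 and 90. Over all 630 sequences it was -0.02, -0.17 and 0.11. The sequences share libraries and are not independent, so these are descriptions. Of the 7 GC-rich members 3 rose, all 3 from the pairs above. The other 4 did not pass the test: mir-4335-p5 stood at 0.81, and miR-9810-3p, miR-9851-3p and mir-10384-2-p3 at -1.94, -0.90 and -2.13 on the log2 scale (limma adjusted p 0.356, 0.267, 0.0741 and 0.185).

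**Figure D3:**
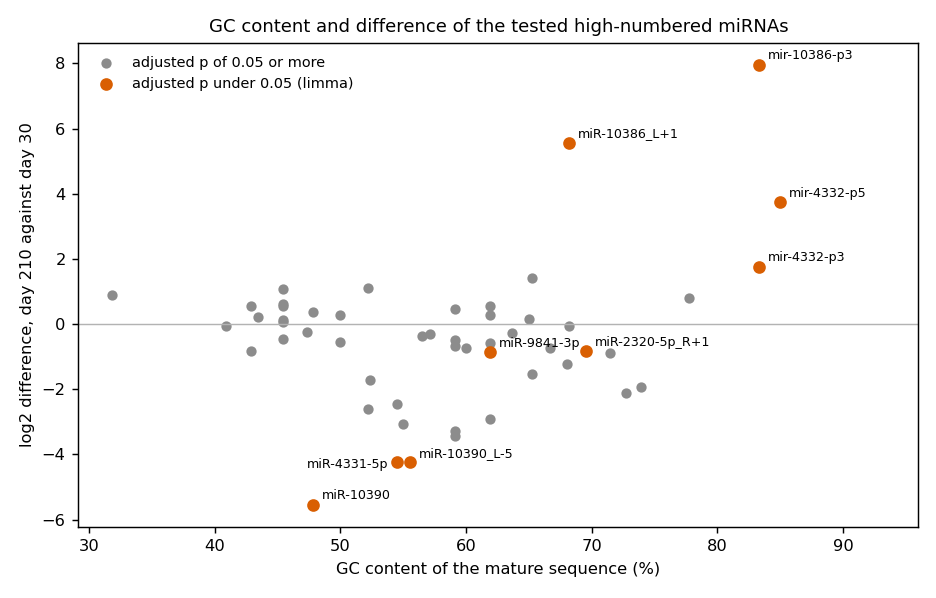
GC content of the mature sequence in percent (horizontal axis) against the log2 difference between day 210 and day 30 (vertical axis) for the 52 tested high-numbered miRNAs; orange points passed an adjusted p of 0.05 by limma and carry their names. The 3 members rising with a GC content above 80% and miR-10386_L+1 at 68.2% stand above the rest, and the 5 called lower lie between 47.8% and 69.6%.

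miR-10390 and its form miR-10390_L-5 fell between days 30 and 210. miR-10390 stood at 107, 151 and 159 at day 30, at 37.4, 72.2 and 57.0 at day 90, and at 24.5, 0 and 0 at day 210. No library of one age overlapped with those of another. By the estimated steps these were 126, 158 and 219 reads at day 30 and 23 reads in the only day 210 library above 0. The difference from day 30 was -5.55 ± 1.07 on the log2 scale (limma adjusted p 0.0152) and that from day 90 -4.21 ± 1.07 (adjusted p 0.0395). With the common detection level they were -3.43 (adjusted p 0.0104) and -2.10 (adjusted p 0.0502). The call against day 30 was lost in a fit limited to both ages and without day 30 replicates 1 or 3 (adjusted p at most 0.0636). The call against day 90 was lost without the trend and in a fit limited to both ages. The call against day 90 held only without day 210 replicate 1 among the 9 fits that left out a library (highest adjusted p 0.138).

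The forms with a later start were scarcer. miR-10390_L-5 stood at 18.7, 20.03 and 15.2 at day 30, at 4.79, 0 and 26.6 at day 90, and was listed at 0 in all day 210 libraries (limma adjusted p 0.0377 against day 30). miR-10390_L-3 was 10.2, 6.68 and 5.79 at day 30, 0, 5.08 and 0 at day 90 and listed at 0 throughout day 210 (adjusted p 0.0625, and 0.0374 without the trend and 0.0473 in a fit limited to both ages). Both lie near the detection level, which was highest in day 210 replicate 3. Each reached a value of 5 in 3 libraries of day 30, 1 of day 90 and 0 of day 210. Both thus entered the test through day 30, where they are highest. With the common detection level the call of miR-10390_L-5 ended (adjusted p 0.156), as it did without the trend and without any 1 of the day 30 libraries, day 90 replicate 1, or day 210 replicates 1 or 2 (at most 0.114).

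miR-4331-5p and miR-7136-5p were listed at 0 in 2 of 3 day 210 libraries. miR-4331-5p stood at 45.4, 43.4 and 86.5 at day 30, at 29.7, 33.5 and 40.7 at day 90, and at 25.6, 0 and 0 at day 210, below both earlier ages in each library. Its log2 difference from day 30 was -4.24 ± 1.10 (limma adjusted p 0.0412), or -2.13 with the common detection level (adjusted p 0.0489). That from day 90 was -3.57 ± 1.10 (adjusted p 0.0798), and passed without day 210 replicate 1 (-5.14, adjusted p 0.000325). The call against day 30 was lost without the trend and in a fit limited to both ages. It held only without day 210 replicate 1 among the 9 fits that left out a library (highest adjusted p 0.151). Its read equivalents include fractions in 4 of 9 libraries, the cause of which was not tested, and the opposite arm, mir-4331-2-p3, never exceeded 5.27.

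miR-7136-5p stood at 13.6, 29.6 and 20.3 at day 30, at 59.4, 15.2 and 33.4 at day 90, and at 0, 0 and 9.60 at day 210. The day 210 libraries lay below all others. It was called against day 90 (log2 -3.88 ± 0.94, limma adjusted p 0.0337) and just missed the threshold against day 30 (-3.27 ± 0.94, adjusted p 0.0542). The latter passed after rescaling to equal sums (adjusted p 0.0383), with sample weights (-4.07, adjusted p 0.00849) and without day 210 replicate 3 (-4.40, adjusted p 0.00448). Against day 90 the call was lost with the common detection level (-1.77, adjusted p 0.0771), without the trend and in a fit limited to both ages. It was also lost without day 30 replicates 1 or 3, any 1 of the day 90 libraries, or day 210 replicates 1 or 2 (at most 0.136). miR-7136-3p was above 0 in 2 libraries, both of day 90, at 4.79 and 5.32.

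A smaller and even fall was seen in miR-9841-3p, which is far above the detection level. It stood at 5275, 4673 and 4295 at day 30, at 4191, 3368 and 4182 at day 90, and at 2719, 2702 and 2384 at day 210. The 3 ages did not overlap, and the day 210 libraries were close to each other. The level was 1.82-fold lower at day 210 than at day 30, a log2 difference of -0.86 ± 0.15 (limma adjusted p 0.00873), and 1.5-fold lower than at day 90 (-0.58 ± 0.15, adjusted p 0.0385). Relative to the median of all sequences the difference from day 30 was -0.72. The call against day 30 held in 17 of 19 alternatives and was lost with the GC correction (adjusted p 0.0617) and without day 30 replicate 1 (0.0531), with a log2 difference between -1.10 and -0.63 throughout. The call against day 90 was lost with the GC correction, without the trend and in a fit limited to both ages, and held only without day 210 replicate 3 among the fits that left out a library (highest adjusted p 0.140).

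miR-2320-5p fell by a like amount. miR-2320-5p_R+1 stood at 2066, 2278 and 1721 at day 30, at 1522, 1293 and 1155 at day 90, and at 1205, 1255 and 947 at day 210. All day 30 libraries lay above all later ones, while days 90 and 210 overlapped. Its log2 difference between days 210 and 30 was -0.83 ± 0.18 (limma adjusted p 0.0229), -0.69 relative to the median of all, and that between days 210 and 90 was -0.22 ± 0.18 (adjusted p 0.468). The call was lost with the GC correction, without the mean-variance trend, in a fit limited to both ages, and without day 30 replicates 1 or 2 (adjusted p at most 0.0958). The opposite arm, miR-2320-3p_R+1, had day 30 values of 541, 458 and 404 and day 210 values of 332, 363 and 258, without overlap (-0.56 ± 0.22, adjusted p 0.128, and -0.79, adjusted p 0.0488 after rescaling to equal sums). The 5p arm was 2.76 to 4.98 times the 3p arm in the 9 libraries.

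Against day 90, day 210 had 4 members higher and 3 lower, 13.5% of the 52 tested, where 8.1% of all 630 sequences were called. The 4 higher were again both arms of miR-10386 and of miR-4332, and the 3 lower were miR-10390, miR-7136-5p and miR-9841-3p, whose values are given above. These are 7.69% and 5.77% of the members, where 4.13% were called higher and 3.97% lower of all 630 sequences. The share called higher includes mir-10386-p3, which entered the test through day 210, where it is highest. The day 210 libraries lay above all day 90 libraries in 5 members (9.62%, against 13.3% of all) and below in 11 (21.2%, against 15.9%). Median log2 differences were -0.34 for the members and -0.14 for all, which became -0.30 for all after rescaling to equal sums. The counts of higher and lower calls were 0 and 0 without any 1 of the day 90 libraries or without day 210 replicate 2. They were 4 and 0, 4 and 1, and 1 and 0 without day 30 replicates 1, 2 and 3, and 3 and 6 and then 6 and 4 without day 210 replicates 1 and 3. Of all 630 sequences, 9, 11 and 22 were called without day 90 replicates 1, 2 and 3. The totals were 37, 50 and 37 without day 30 replicates 1, 2 and 3. Without day 210 replicates 1, 2 and 3 the totals were 60, 16 and 120.

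The 3 most abundant high-numbered miRNAs were called in no comparison. miR-4334-3p, which shares its sequence with an entry of miR-339, stood at 62900, 66044 and 60307 at day 30, at 64418, 72966 and 68821 at day 90, and at 70587, 77773 and 64204 at day 210. The ages overlapped, and its log2 difference between days 210 and 30 was 0.16 ± 0.11 (limma adjusted p 0.379), or -0.07 after rescaling to equal sums. Its read equivalents were fractions in all 9 libraries, the cause of which was not tested, and with the sequence listed under both names its level cannot be assigned to 1 precursor. miR-339_R+1 was higher, with a mean of 183581 over the 9 libraries against 67558.

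Its longer forms were scarce. miR-4334-3p_L+2, with 2 more bases at the 5′ end and thus another seed, stood between 13.8 and 42.4, and miR-4334-3p_R+5 between 0 and 14.9. Their log2 differences between days 210 and 30 were 0.47 ± 0.44 and -0.73 ± 0.98 (limma adjusted p 0.526 and 0.656). The second was 0.49 without day 210 replicate 3, the only library in which it was listed at 0, and 0.30 with the common detection level, so no direction is given.

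miR-7134 was the most abundant member with a sequence of its own. miR-7134-3p stood at 25992, 32954 and 26981 at day 30, at 37345, 43307 and 35234 at day 90, and at 44446, 50218 and 32428 at day 210. Every day 90 library exceeded every day 30 library, and day 210 replicate 3 lay within the day 30 range. The log2 differences from day 30 were 0.43 ± 0.18 at day 90 (limma adjusted p 0.275) and 0.55 ± 0.18 at day 210 (adjusted p 0.0741). The first passed with the GC correction (0.64, adjusted p 0.0279) and with sample weights (0.47, adjusted p 0.0275). The second also passed with both (0.79, adjusted p 0.00542, and 0.71, adjusted p 0.0129) and without day 210 replicate 3 (0.73, adjusted p 0.0126). miR-7134-5p stood at 7447, 10549 and 8382 at day 30 and at 10917, 14349 and 7617 at day 210, with overlap (0.29 ± 0.24, adjusted p 0.478). The 3p arm was 3.12 to 4.81 times the 5p arm in every library.

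Neither miR-6529 nor miR-7137-5p passed the test. miR-6529 stood at 982, 1179 and 956 at day 30 and at 930.1, 955 and 677 at day 210. All day 210 values lay below the lowest of day 30, that of replicate 3 the furthest (-0.29 ± 0.19, limma adjusted p 0.339). Its other arm, mir-6529-p3, went from 165, 205 and 177 to 138, 136 and 57.6 (-0.82 ± 0.35, adjusted p 0.154). miR-7137-5p_L-2R+2 stood at 532, 654 and 594 at day 30, at 631, 565 and 563 at day 90 and at 493, 350 (349.9) and 365 at day 210. The last age lay below both others without overlap, yet missed the threshold (-0.57 ± 0.19, adjusted p 0.0808). It passed after rescaling to equal sums (-0.80, adjusted p 0.0314) and without day 210 replicate 1 (-0.73, adjusted p 0.0356). miR-7137-3p ran from 18.1 to 53.9 over all libraries (-0.07 ± 0.44, adjusted p 0.935).

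**Figure D4:**
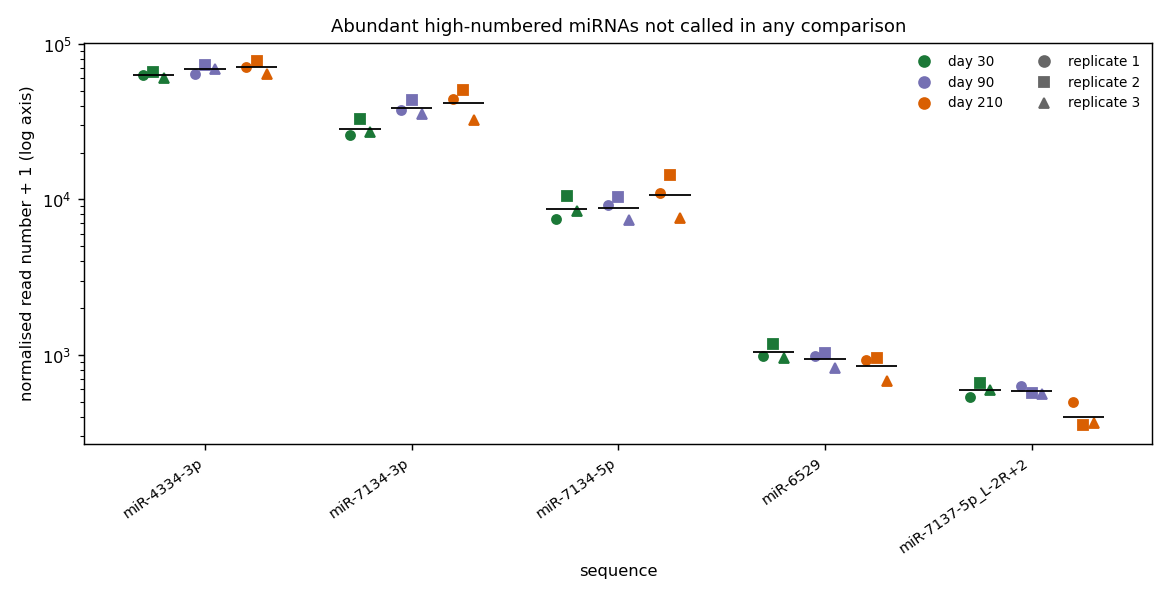
Normalised read number + 1 on a log axis for the 5 most abundant high-numbered miRNAs that were called in no comparison; points are libraries, colours are ages, shapes are replicates, and bars are geometric means of 3 libraries. miR-4334-3p stays between 60307 and 77773 in all 9 libraries, and miR-7134-3p is lowest at day 30.

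The remaining members were called at no age. Among those tested, the nearest to the threshold between days 210 and 30 were miR-7138-5p and miR-7139-3p. miR-7138-5p stood at 272, 318 and 307 at day 30, at 327, 509 and 410 at day 90 and at 865, 820 (819.8) and 386 at day 210. It was higher in every library of each later age than at day 30 (1.12 ± 0.31, limma adjusted p 0.0537). miR-7139-3p stood at 28.9, 21.9 and 29.0, then 8.63, 8.13 and 10.6, then 14.9, 0 and 0. All later libraries lay below day 30 (-3.44 ± 0.98, adjusted p 0.0542), and its other arm, miR-7139-5p_R-2, also lay below (-1.73 ± 0.59, adjusted p 0.0883). The 11 untested members had highest values of 3.62 to 10.3 in any library, among them mir-9841-p5, miR-7136-3p and the 5p arms of miR-7140 and miR-7142.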

How the data were processed

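Small RNA of 9 spleen libraries (3 per age) was measured by sequencing. Per the labels' protocols, Trizol RNA was made into TruSeq Small RNA libraries and reads were cleaned with ACGT101-miR (adapters, junk, simple sequence, other RNA classes and repeats taken out). For the aligner, genome build, miRNA database and scaling: not given in the sources used here. Per the file headers, the authors deposited a normalised read signal per sequence and library, not a count, so no count model was used and counting intervals are not given.

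Of 980 entries 5 that repeated another's values and sequence were dropped; a member was kept before a non-member. Between 88.0% and 92.2% of values above 0 were whole multiples of a step (tolerance 0.01), taken as 1 read, with the commonest low value taken as 5 reads (3.62 to 8.001 by library); at least 97.6% of values above 0 reached it. limma 3.58.1 in R 4.3.3 was run on log2(value + 1), 1 mean for each age, all 9 libraries in 1 fit, with a mean-variance trend and Benjamini-Hochberg adjustment over all 630 sequences at 5 or more in at least 3 libraries. The procedure was tested on simulated data. A fold is the ratio between geometric means of value + 1; log2 differences are given ± SE. Named in full are members called in any comparison, the 10 with the highest mean, and other forms of their precursors; further members named were chosen after their values were seen. Members and lists were chosen with earlier results of these data known. Alternatives were a pseudocount of 5, no filter, a stricter filter (20), a common detection level, equal sums, a GC correction, no trend, sample weights, a replicate block, only the ages compared, and each library left out with the tested sequences kept.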

Additional observations from a re-analysis of the deposited data

How the results depend on the processing

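Counts of calls moved with the fit; for each setting they are given for all sequences, then members higher and lower. Between days 90 and 30 the main counts were 7, 0 and 0. The total was 13 with the common detection level, 81 with sample weights and 24 in the fit of only the ages compared; members higher were 1 with the GC correction, 7 with sample weights and 3 with only the ages compared; members lower were 1 with the common detection level, 3 with sample weights and 1 with only the ages compared. Leaving out 1 library gave totals of 1 to 20, members higher 0 to 2 and lower 0 to 0. Between days 210 and 30 the main counts were 58, 4 and 5. The total was 38 with the common detection level, 92 with equal sums, 109 with sample weights and 25 with only the ages compared; members higher were 0 with the common detection level, without the trend and with only the ages compared; members lower were 10 with equal sums, 11 with sample weights and 3 with only the ages compared. Leaving out 1 library gave 9 to 95, 0 to 5 and 0 to 8. Between days 210 and 90 the main counts were 51, 4 and 3. The total was 24 without the trend, 100 with sample weights and 14 with only the ages compared; members higher were 0 with the common detection level, 2 with the GC correction, 0 without the trend and 1 with only the ages compared; members lower were 1 with the common detection level, 0 without the trend, 5 with sample weights and 0 with only the ages compared. Leaving out 1 library gave 9 to 120, 0 to 6 and 0 to 6. The cause of these moves was not tested, except that a fit of only the ages compared has fewer libraries.

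With the replicate block the totals were 1, 45 and 47 for days 90 and 30, 210 and 30, and 210 and 90, and 3 members were lower between days 210 and 30. It ended the calls of miR-4331-5p, mir-4332-p5 and miR-10390_L-5 between days 210 and 30 (limma adjusted p 0.0519 each) and of miR-10390 between days 210 and 90 (0.0628), and miR-7134-3p passed between days 210 and 30 (0.0399). The replicate numbers share no stated origin. Deviations of same-numbered libraries correlated at -0.10 to 0.19 over 9 pairs, with 1 above 0.1. Such correlations cannot show whether same-numbered libraries share an origin.

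Of the 16 calls of single members none turned direction in its alternatives. Turns occurred in 3 uncalled ones between days 210 and 30: miR-4334-3p to -0.067 with equal sums, miR-4334-3p_R+5 to 0.30 with the common detection level and 0.16 with sample weights (-1.51 to 0.49 with 1 library left out), and miR-7137-3p to 0.14 with the GC correction (-0.39 to 0.28 with 1 library left out). Sequences near the detection level, among them the forms of miR-10390, rest on few reads, and the level was highest in day 210 replicate 3.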

Other observations

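Several high-numbered miRNAs appear in the table a second time as a candidate of the authors that is 1 base longer. PC-3p-185_76789 holds the 21 bases of miR-7134-3p plus 1 at the 3′ end and had a mean of 13138 over the 9 libraries, against 36545 for miR-7134-3p. PC-5p-897_7083 holds miR-7134-5p plus 1 base at the 5′ end, which shifts the seed, with a mean of 1536 against 9560 (9559.6). Candidates that extend miR-7137-3p, miR-7139-3p and miR-7142-3p by 1 base had means of 20.6, 15.3 and 13.5. For miR-7139-3p the longer form was the higher one by mean, 15.3 against 13.6. Values given for a member therefore cover only the reads of its listed form.

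Many of the precursors overlap another gene. In the RefSeq gene table of Sscrofa11.1, which may not be the build used by the authors, 27 of the 38 numbers were matched to a miRNA gene and 20 of these overlap another gene, strand not considered. miR-7134 overlaps TNRC6B, which encodes a scaffold protein of miRNA silencing. miR-9841 overlaps F13A1, which encodes the A subunit of coagulation factor XIII. miR-7137 overlaps BUD23, which encodes a methyltransferase of ribosomal RNA, and miR-4334 overlaps DNPEP, which encodes an aspartyl aminopeptidase. miR-4331 and miR-7136 overlap no other gene, and miR-10386, miR-10390 and miR-4332 were not matched. Levels of the host genes were not analysed here.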
